A study of Mus musculus with 28 samples.

Results

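Adult mouse liver was compared with adult mouse pancreas across all genes on Agilent oligonucleotide microarrays, using 4 of the 28 arrays of the series: 2 of adult liver and 2 of adult pancreas. The arrays were chosen by their sample titles and not by any measured value. Both organs came from wild-type C57BL/6 mice, no array of either group carried a treatment or an engineered allele, and the labels call the samples of each group biological replicates. The labels give neither the age beyond adult, nor the sex, nor whether RNA of several animals was pooled. The whole series sets wild-type muscle, white and brown fat, liver and pancreas against liver-derived organoid cultures, sorted liver cells and livers after carbon tetrachloride. Total RNA of each tissue was labelled with Cy3 and hybridised together with a commercial mouse reference RNA labelled with Cy5. Values are therefore log2 ratios of tissue to reference RNA, and a difference between the organs is the liver mean minus the pancreas mean. Of 28034 genes on the array, 21032 gave a Cy3 signal that the scanner software marked as well above background on 2 or more of the 28 arrays, and these were tested.

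Liver and pancreas both arise from foregut endoderm and both devote most of their cells to making secreted protein, but they release it in different directions. Hepatocytes secrete albumin, clotting factors, complement and lipoproteins into blood, and they also detoxify ammonia and drugs, make bile acids and store glucose as glycogen. Pancreatic acinar cells pack digestive enzymes into zymogen granules and release them into a duct when a meal-induced signal such as cholecystokinin arrives, while islets scattered among them secrete insulin, glucagon and somatostatin into blood. In hepatocytes the nuclear receptor HNF4A and FOXA factors are known regulators of the secreted-protein genes. In acinar cells that role belongs to the PTF1 complex, in which PTF1A and RBPJL sit on DNA with an E-protein, and to BHLHA15 (MIST1), which supports the secretory apparatus.

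The labels were first checked against defining genes. Of 7 hepatocyte marker genes that could be tested, 7 were well above background on each liver array, against 0 and 3 on the pancreas arrays, and their median log2 ratio was 5.63 and 5.62 in liver against 0.215 and 0.136 in pancreas. Of 8 acinar markers, 7 and 4 were above background on the liver arrays and 8 and 8 on the pancreas arrays, with median log2 ratios of 1.11 and 0.191 in liver against 8.28 and 7.41 in pancreas. Both organs thus carried the markers of their label. Liver arrays had 46.8% and 60.9% of probes well above background in Cy3, and pancreas arrays had 17.7% and 44.0%, so pancreas 1 was the array with the fewest detected probes of the series. Across genes the log2 ratios of the 2 liver arrays correlated at 0.969 and those of the 2 pancreas arrays at 0.906. No signal of these 4 arrays was flagged as saturated. The 4 arrays lay on 4 different slides scanned on different days, so slide or scan day and organ cannot be told apart within the comparison, although a fit over all 28 arrays with either as a random block could be made. RNA came from whole tissue, so fewer cells of a type and less RNA per cell cannot be told apart in any value below.

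Sequences of 6 promoters are shown because they belong to secreted-protein genes that separate the organs and hold the strings searched below. Each is the 250 bases before the transcription start in RefSeq for GRCm38.p6, written 5′ to 3′ on the gene's strand. The first 3 belong to genes higher in liver, with capitals marking GTTAAT or its reverse complement ATTAAC, a homeodomain motif core known from liver promoters: Alb at chr5:90460620-90460869 on the plus strand, Fgb at chr3:83049864-83050113 on the minus strand and Serpina1c at chr12:103904951-103905200 on the minus strand.
Alb: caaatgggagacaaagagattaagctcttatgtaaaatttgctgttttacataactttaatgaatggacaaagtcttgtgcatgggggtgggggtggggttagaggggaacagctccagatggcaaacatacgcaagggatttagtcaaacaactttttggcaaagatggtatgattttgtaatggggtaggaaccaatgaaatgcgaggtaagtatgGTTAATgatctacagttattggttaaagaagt
Fgb: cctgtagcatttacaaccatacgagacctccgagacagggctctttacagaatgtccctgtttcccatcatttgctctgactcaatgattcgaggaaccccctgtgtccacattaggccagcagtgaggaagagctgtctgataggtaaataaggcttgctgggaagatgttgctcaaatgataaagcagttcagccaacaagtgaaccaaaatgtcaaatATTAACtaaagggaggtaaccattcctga
Serpina1c: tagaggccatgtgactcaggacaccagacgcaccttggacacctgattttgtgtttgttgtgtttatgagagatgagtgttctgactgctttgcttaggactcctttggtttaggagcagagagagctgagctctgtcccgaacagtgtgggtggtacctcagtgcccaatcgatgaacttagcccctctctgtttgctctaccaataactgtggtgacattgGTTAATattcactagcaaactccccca
The next 3 belong to acinar enzyme genes lower in liver, with capitals marking CACCTG or its reverse complement CAGGTG, an E-box of the kind the PTF1 complex binds: Cela1 at chr15:100687921-100688170, Cpb1 at chr3:20275734-20275983 and Cel at chr2:28563404-28563653, all on the minus strand.
Cela1: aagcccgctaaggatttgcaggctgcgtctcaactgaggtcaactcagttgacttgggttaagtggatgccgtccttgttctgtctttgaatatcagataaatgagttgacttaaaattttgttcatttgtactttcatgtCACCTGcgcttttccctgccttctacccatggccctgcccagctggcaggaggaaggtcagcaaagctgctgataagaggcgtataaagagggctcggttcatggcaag
Cpb1: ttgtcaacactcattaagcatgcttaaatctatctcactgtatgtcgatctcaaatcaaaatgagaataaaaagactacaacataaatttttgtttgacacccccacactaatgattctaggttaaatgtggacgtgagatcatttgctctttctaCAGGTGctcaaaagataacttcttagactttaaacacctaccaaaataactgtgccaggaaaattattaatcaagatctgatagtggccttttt
Cel: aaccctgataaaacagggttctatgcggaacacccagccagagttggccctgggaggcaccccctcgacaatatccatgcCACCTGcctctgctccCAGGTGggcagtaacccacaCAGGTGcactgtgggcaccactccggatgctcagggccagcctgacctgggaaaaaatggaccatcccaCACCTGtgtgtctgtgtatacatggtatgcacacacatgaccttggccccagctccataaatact
GTTAAT on either strand was found before 13 of the 53 plasma, coagulation and complement genes that had a promoter entry (24.5%), before 4 of 23 acinar enzyme genes and before 7.49% of all 27025 promoters of that length. CACCTG on either strand was found before 14 of the 23 acinar enzyme genes, before 7 of the 53 plasma-protein genes (13.2%) and before 19.4% of all promoters. TATAAA was found before 10 of the 23 acinar genes, before 9 of the 53 and before 14.3% of all. In all, 12 strings were searched. Of the forkhead strings, TGTTTAC was present before 7 of 53 plasma-protein genes, 0 of 23 acinar genes and 3.54% of all promoters, and TGTTTGC before 10, 2 and 4.93%. TTTCCC, found in RBPJ sites, was before 18, 8 and 24.4%, and AAGGTCA, a nuclear receptor site sequence, before 6, 4 and 4.7%. The relaxed and the full palindrome built on GTTAAT were before 2 and 0 of the 53 genes, and the HNF4 string CAAAGTCCA before 0 of them. The unfolded-protein strings TGACGTGG and CCACGTGT were before 0 genes of both sets. These are matches of letters, not binding sites.

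Between the organs, 6107 of 21032 genes (29% of those tested) differed by limma at an adjusted p under 0.05 and a log2 difference of at least 1 in size, and such genes are called below. In liver 2662 genes were higher (12.7%) and 3445 lower (16.4%). The median log2 difference of all genes was -0.0725. The limma fit held all 28 arrays in 13 groups. Its SEs, intervals and p-values therefore use a spread pooled over groups, not that of liver and pancreas alone. The arrays of the 2 organs did not overlap for 6080 of the called genes. The call itself nearly ensures this, so the count adds no support to the calls. Of the genes higher in liver, 903 (33.9%) were above background on no pancreas array, and of those lower in liver, 409 (11.9%) were above background on no liver array. Such genes have only a lower bound on their fold, which is given as "at least" and compares the Cy3 level with the dimmest detected probes of the other organ. These bounds use 1 dye per tissue without a dye swap and are open to dye bias. The adjusted p beside a bound is from the limma fit of the ratio, not of the Cy3 level. The fold of that ratio can lie well below the bound, as for Pnlip and Fgb. Over both arrays of an organ, 2050 genes were detected in liver and on neither pancreas array, and 103 in pancreas and on neither liver array. The pancreas arrays detected fewer genes at large: 13725 were above background on both liver arrays and 5970 on both pancreas arrays. The 2 counts are therefore not a measure of how many genes are restricted to either organ.

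**Figure D1:**
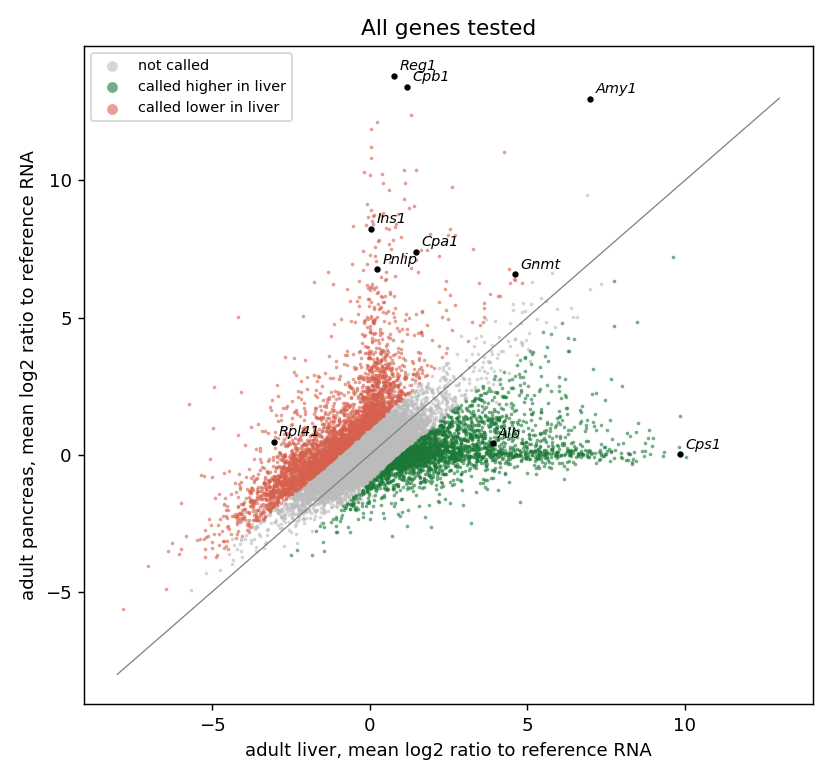
Mean log2 ratio to reference RNA of each of the 21032 genes tested, in adult liver (horizontal axis) and adult pancreas (vertical axis), with the line of equal values. Green points are the 2662 genes called higher in liver and red points the 3445 called lower. Reg1 and Cpb1 stand at the top near a liver ratio of 1, and Cps1 at the far right near a pancreas ratio of 0.

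The liver's plasma proteins were mostly higher there. Of 33 tested genes of a plasma protein list, 31 were higher in liver, against 12.7% of all genes tested, and none lower. Their median log2 difference was 4.64 against -0.0725 over all genes. Alb, which encodes albumin, had log2 ratios of 3.85 and 3.96 in liver against 0.17 and 0.66 in pancreas. The liver and pancreas arrays did not overlap, and the log2 difference was 3.49 (SE 0.89, limma adjusted p = 0.00322). Ttr, the thyroxine and retinol carrier transthyretin, had 5.94 and 6.42 in liver against 0.29 and 0.45 in pancreas. Its log2 difference was 5.81 (SE 0.43, adjusted p = 1.02e-09). Apoh, a phospholipid-binding plasma protein, and Hpx, the haem carrier hemopexin, were above background on no pancreas array and at least 738-fold and at least 841-fold higher in liver (adjusted p = 6.6e-09 and 5.23e-10). Apob, the structural protein of very-low-density lipoprotein, had 6.59 and 7.05 in liver against 1.59 and 0.12 in pancreas, and was at least 216-fold higher (adjusted p = 2.27e-10). Mup1, a major urinary protein that carries pheromones, was at least 2472-fold higher in liver (adjusted p = 1.36e-07), and the 8 tested Mup genes were all called higher.
The 2 listed plasma-protein genes not called were Apoe and Itih4, a serum trypsin-inhibitor heavy chain. Apoe had log2 ratios of 6.18 and 5.73 in liver against 5.33 and 5.27 in pancreas. Itih4 had 2.96 and 3.00 against 2.75 and 2.86. The ratio difference of Apoe was 0.66 (SE 0.48, adjusted p = 0.298), while its Cy3 level alone was higher in liver by 4.17. Outside the list, the plasma-protein genes Vtn and Clu were called lower in liver. Their log2 differences were -2.34 and -1.79 (limma adjusted p = 0.00659 and 0.00595). On the Cy3 level alone Vtn differed by 2.74 and Clu by -1.23.

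The listed coagulation and complement genes were all higher in liver, 35 of 35 tested, with a median log2 difference of 5.48. Of these genes, 21 were above background on no pancreas array, as were 15 of the 33 plasma proteins, 22 of 37 drug-metabolism genes and 13 of 19 bile acid genes, so their differences are against background. With such genes at the log2 of their bound, the medians were 5.56 for coagulation and complement, 5.15 for plasma proteins, 5.51 for drug metabolism and 4.98 for bile acids. Fgg, the fibrinogen gamma chain, had log2 ratios of 8.09 and 8.79 in liver against -0.35 and -0.10 in pancreas and was at least 1481-fold higher in liver (adjusted p = 2.59e-06). Fgb, the beta chain whose promoter is shown above, had 6.06 and 5.46 against 0.06 and 0.04 and was at least 1621-fold higher (adjusted p = 0.000149). Serpinc1, antithrombin, was at least 1068-fold higher (adjusted p = 5.07e-10) and F13b, the carrier subunit of factor XIII, at least 48.3-fold higher (adjusted p = 2.72e-11). For all 4 genes the signal in pancreas was at background. Cfi, the protease that inactivates complement C3b, had 9.44 and 10.19 in liver against 0.07 and 0.48 in pancreas and was at least 414-fold higher (adjusted p = 4.83e-10). C4bp, a cofactor of Cfi, was at least 444-fold higher by the brighter of its 2 probes (adjusted p = 4.03e-11), while its other probe changed by -0.18. Complement genes outside the list did not all differ. C1qa, C1qc, Cfd and C1rl were not called, with log2 differences of 1.41, 0.23, 0.23 and -0.44.

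Genes of nitrogen and amino acid metabolism were mostly higher in liver. Of 37 genes of the urea cycle and amino acid breakdown, 32 were higher in liver and 2 lower, with a median of 4.02. Cps1, which makes carbamoyl phosphate at the entry of the urea cycle, had log2 ratios of 9.72 and 9.96 in liver against 0.02 and 0.02 in pancreas. It was at least 388-fold higher in liver (limma adjusted p = 1.91e-12). Otc, the next enzyme of the cycle, was at least 112-fold higher (adjusted p = 2.06e-10). Gldc, of the glycine cleavage system, was at least 40.5-fold higher (adjusted p = 1.42e-13), and Tat, tyrosine aminotransferase, differed by 4.65 (adjusted p = 1.71e-10).
The 2 genes lower in liver were Gnmt, glycine N-methyltransferase, and Cbs, cystathionine beta-synthase, and both went the other way on the Cy3 level alone, as given with the reference channel below.

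Drug-metabolising enzymes were higher in liver for 35 of 37 tested genes, with none lower and a median of 5.37. Of 75 genes with symbols starting Cyp, 55 were higher in liver and 5 lower, and all 12 Ugt genes were higher. Cyp2e1, which oxidises ethanol and paracetamol, had log2 ratios of 5.63 and 5.93 in liver against 0.21 and 0.14 in pancreas and was at least 695-fold higher (adjusted p = 1.07e-07). Ugt2b5, a glucuronosyltransferase, was at least 211-fold higher (adjusted p = 1.61e-13). Gsta3, a glutathione transferase, had 7.51 and 7.42 in liver against 2.01 and 1.97 in pancreas, a log2 difference of 5.47 (adjusted p = 1.6e-10). Cyp17a1, which makes androgen precursors, ran against its family with 2.44 and 2.14 in liver against 5.55 and 4.50 in pancreas, a log2 difference of -2.74 (SE 0.39, adjusted p = 1.04e-05). Probes of near-identical copies, among them Mup, Ugt2b, Cyp3a, Serpina1, Klk1b, trypsin and amylase genes, can share target, so a value for 1 such copy is uncertain.

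The listed bile acid genes were all called higher in liver, 19 of 19 with a median of 5.07. Cyp7a1, the rate-limiting enzyme of bile acid synthesis, had log2 ratios of 6.51 and 6.05 in liver against 0.13 and 0.20 in pancreas and was at least 31.5-fold higher (adjusted p = 2.44e-09). Abcb11, the canalicular bile salt export pump, was at least 268-fold higher (adjusted p = 1.1e-08), Slc10a1, the sinusoidal bile acid uptake carrier, at least 79.9-fold (adjusted p = 1.29e-12), and Baat, which conjugates bile acids, at least 139-fold (adjusted p = 2.33e-13). Nr1h4, the bile acid receptor FXR, had 5.20 and 4.94 in liver against 0.24 and 1.01 in pancreas (log2 difference 4.44, adjusted p = 1.81e-08). The listed synthesis, export and uptake genes, and Nr1h4, were thus on the same side. Cyp39a1, a bile acid synthesis gene outside the list, was called lower in liver.

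Fat and sugar metabolism also lay on the liver side, with smaller median differences. Of 22 genes of fat oxidation and ketone formation, 20 were higher in liver (median 2.82). Of 19 tested genes in the glucose and glycogen list, 17 were higher and 1, Gnmt, lower (median 3.42). Gnmt is the glycine enzyme already counted with the amino acid genes above, not a glucose gene. The list also held Adh4, an alcohol dehydrogenase, among its higher genes. Gnmt was higher in liver on the Cy3 level alone, as given with the reference channel below. Fabp1, the liver fatty acid carrier, was at least 1835-fold higher (adjusted p = 2.77e-08). G6pc, the enzyme that releases free glucose, and Gys2, liver glycogen synthase, were at least 153-fold and at least 139-fold higher (adjusted p = 3.69e-10 and 1.27e-07). Fbp1, a gluconeogenic enzyme, had 6.89 and 7.76 in liver against 0.66 and 0.14 in pancreas (log2 difference 6.93, adjusted p = 5.68e-08). Slc2a2 encodes GLUT2, the glucose carrier of both hepatocytes and beta cells. Its log2 ratios were 7.97 and 8.37 in liver against 0.92 and 0.67 in pancreas, a log2 difference of 7.38 (adjusted p = 6.96e-10).

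**Figure D2:**
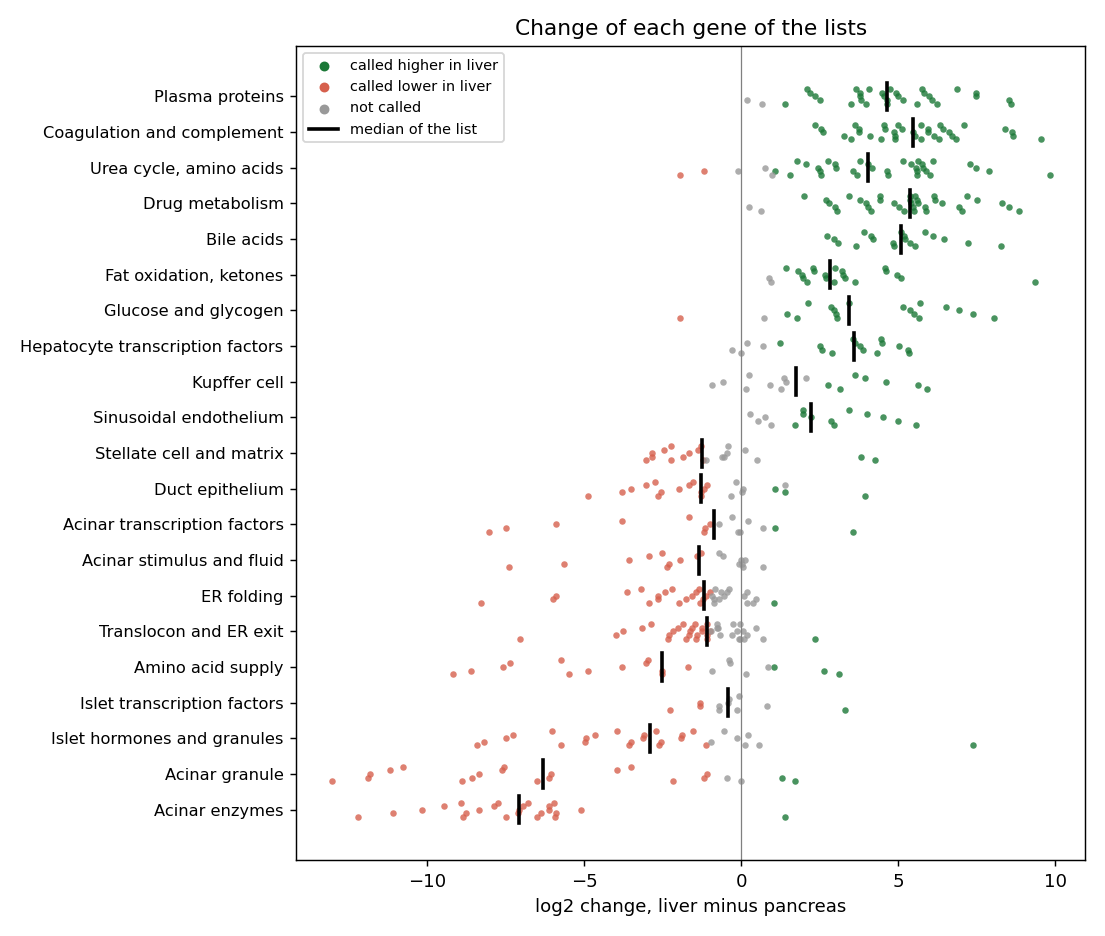
Log2 difference, liver minus pancreas, of every tested gene of 21 lists, with points above 0 on the horizontal axis higher in liver and a black bar at each list's median. Green points were called higher in liver, red points lower, and grey points were not called. Coagulation and complement genes have a median of 5.48 with no red point, and acinar enzymes a median of -7.09 with Dnase1 alone in green.

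Transcription factors of the hepatocyte split into those that differed and those that did not. Of 18 tested, 14 were higher in liver and none lower, with a median of 3.58. Hnf4a had log2 ratios of 5.65 and 5.91 in liver against 0.20 and 0.73 in pancreas, a log2 difference of 5.31 (SE 0.22, adjusted p = 2.6e-13), with its 3 probes between 0.10 and 5.31. Nr1i2, the xenobiotic receptor PXR, and Creb3l3, which drives fasting-response genes, were at least 23.1-fold and at least 122-fold higher (adjusted p = 9.12e-11 and 8.92e-10). Prox1, a hepatoblast and lymphatic factor, was at least 12.4-fold higher (adjusted p = 1.7e-08).
Foxa2, in contrast, had 5.10 and 5.77 in liver against 5.49 and 5.97 in pancreas (log2 difference -0.29, 95% interval -1.36 to 0.77, adjusted p = 0.701). Nr5a2, which binds acinar enzyme and bile acid genes in mice, had 3.998 and 5.63 in liver against 4.53 and 3.72 in pancreas (log2 difference 0.69, 95% interval -0.41 to 1.78, adjusted p = 0.322). Both factors are known in both organs, the organs' arrays overlapped, and both genes were well above background on all 4 arrays.

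The pancreas's digestive enzymes lay far to the other side. Of 24 tested, 23 were lower in liver, with a median log2 difference of -7.09, or -7.3 with genes at background in 1 organ set to their bound. Cpb1, carboxypeptidase B, had log2 ratios of 2.14 and 0.26 in liver against 14.29 and 12.53 in pancreas, a log2 difference of -12.21 (SE 1.36, adjusted p = 3.79e-07). Cpa1, carboxypeptidase A1, had 2.91 and 0.07 in liver against 7.93 and 6.90 in pancreas (log2 difference -5.92, SE 0.63, adjusted p = 2.04e-07). Pnlip, pancreatic triglyceride lipase, was at background on both liver arrays with 0.35 and 0.14, against 7.27 and 6.24 in pancreas, and was at least 6694-fold lower in liver (adjusted p = 1.03e-10). In all 3 genes the pancreas arrays lay far above both liver arrays. Cela1, the elastase whose promoter is shown above, had -0.17 and -0.90 in liver against 8.88 and 7.78 in pancreas (log2 difference -8.86, adjusted p = 3.27e-09). Cel, carboxyl ester lipase, differed by -6.97 and Prss2, a trypsinogen, by -7.10 (adjusted p = 2.27e-06 and 1.31e-06). Spink1, the trypsin inhibitor packed with them, had 0.87 and 1.74 in liver against 13.25 and 11.55 in pancreas, a difference of -11.09 (adjusted p = 9.51e-07).
The amylases differed in how much of them liver held. Amy1, the salivary and liver form, had 6.92 and 7.09 in liver against 13.47 and 12.49 in pancreas (log2 difference -5.97, adjusted p = 6.02e-05). Amy2a5, a pancreatic form, had 4.05 and 4.45 in liver against 11.90 and 10.21 in pancreas (log2 difference -6.80, adjusted p = 2.15e-06). Amy2a4, another pancreatic form, was at background in liver and at least 596-fold lower there (adjusted p = 1.18e-14). Dnase1, a secreted nuclease, was the exception in the list, at background in pancreas and at least 1.32-fold higher in liver (adjusted p = 6.66e-06).

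Acinar transcripts were also seen on arrays where they would not define the tissue. In liver 1, 21 of the 24 enzyme genes were above background with a median log2 ratio of 1.24, and in liver 2 17 were, with a median of 0.191. Cela3b had 2.93 in liver 1 and 0.01 in liver 2. Their summed Cy3 level (log2) was 16.0 and 15.9 in liver against 25.0 and 24.7 in pancreas, and Amy1 alone had 15.8 and 15.8 in liver. In brown adipose 1, a sample of another tissue, 22 of 24 were above background with a median of 3.74, while the other 23 arrays of the series had medians from -0.23 to 0.481. Cpb1 had 7.10 in brown adipose 1 against 0.26 and 0.30 in brown adipose 2 and 3. The cause was not tested. Without liver 1 the log2 difference was -7.34 for Cpa1, -13.16 for Cpb1 and -10.39 for Cela3b, against -5.92, -12.21 and -8.92 with it. Leaving brown adipose 1 out of the fit gave 6065 called genes, and leaving out liver 1 gave 5668.

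**Figure D3:**
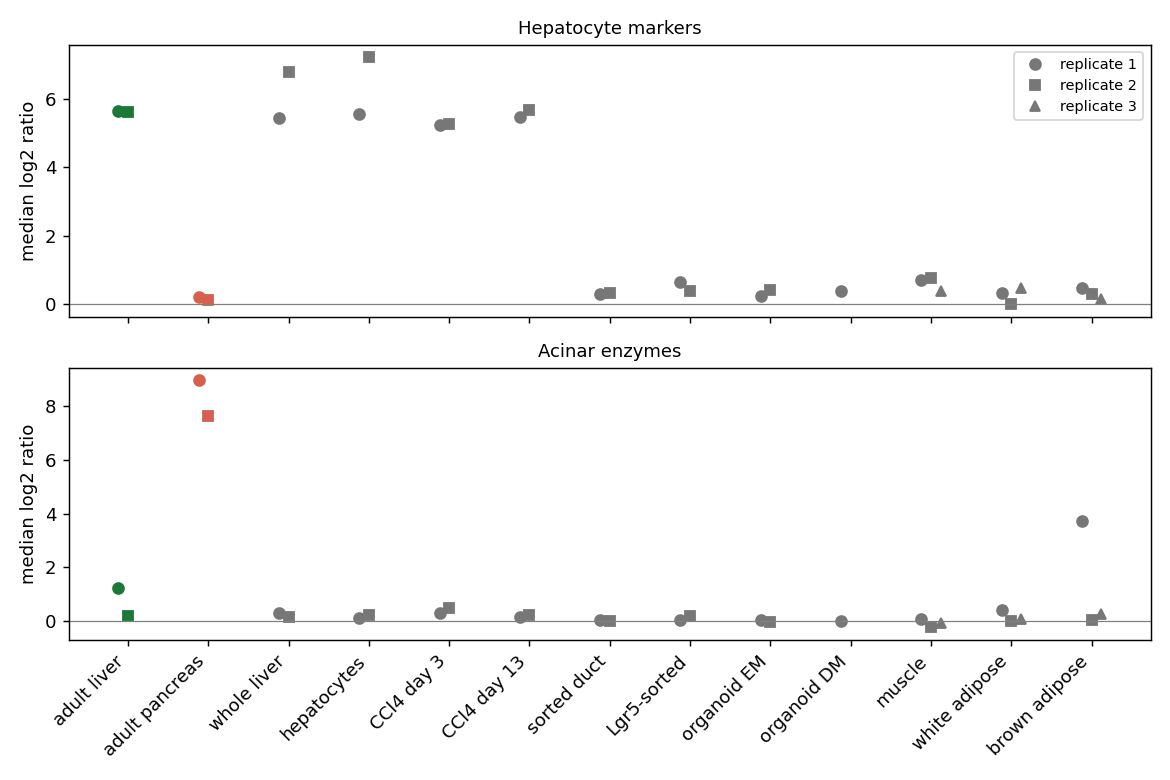
Median log2 ratio to reference RNA of the 7 hepatocyte markers (top) and the 24 acinar enzyme genes (bottom) on each of the 28 arrays, by group, with adult liver in green and adult pancreas in red. Hepatocyte markers stand at 5.63 and 5.62 in adult liver and near 0 in pancreas. Acinar enzymes stand at 8.96 and 7.61 in pancreas, at 3.74 in brown adipose 1 and at 1.24 in adult liver 1.

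Proteins of the zymogen granule and the acinar cell's secretion followed the enzymes. Of 22 tested, 18 were lower in liver and 2 higher, with a median of -6.31, or -6.47 with bounds. Reg1, a lectin-like secreted protein of the acinar cell, had log2 ratios of 1.16 and 0.40 in liver against 14.65 and 12.97 in pancreas, a log2 difference of -13.04 (SE 1.44, adjusted p = 3.51e-07). All 6 tested Reg genes were lower. Gp2, the main granule membrane glycoprotein, was at least 3554-fold lower in liver (adjusted p = 1.19e-12) and Cuzd1, a zymogen granule membrane protein, at least 1201-fold (adjusted p = 1.08e-13). Stx3 and Snap23, SNARE proteins found in many cell types, were higher in liver by 1.69 and 1.29 (adjusted p = 0.000256 and 0.000118), although the 5 probes of Stx3 ranged from -1.40 to 1.69.
Of 18 genes that receive or carry out the secretory stimulus, 10 were lower in liver and none higher (median -1.35). Cckar, the cholecystokinin receptor, had 0.18 and 0.17 in liver against 7.63 and 7.50 in pancreas and was at least 201-fold lower (adjusted p = 1.58e-11). Itpr3, the calcium-release channel of the acinar apex, had -4.58 and -4.19 against -1.62 and -1.25 (log2 difference -2.95, adjusted p = 3.69e-10). Aqp12, an acinar water channel, was at least 388-fold lower (adjusted p = 8.76e-13).

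The factors that maintain acinar identity were lower in liver for 8 of 16 tested genes, with 2 higher, 6 not called and a median of -0.864, or -0.734 with bounds. The count fell to 5 without liver 2 and to 5 without pancreas 1. Ptf1a had log2 ratios of 0.08 and 0.22 in liver, at background, against 6.08 and 6.04 in pancreas, and was at least 43.6-fold lower (adjusted p = 2.66e-13). Rbpjl, its acinar partner, had -0.43 and -0.66 in liver against 7.42 and 6.50 in pancreas (log2 difference -7.50, adjusted p = 4.78e-08). Bhlha15 had -1.67 and -1.85 against 6.38 and 6.21 (log2 difference -8.05, adjusted p = 8.3e-11), while its other probe changed by -0.93. Onecut1, a factor of early liver and pancreas, was higher in liver by 3.55 (adjusted p = 2.29e-07). Pdx1, a pancreatic and beta-cell factor, was above background on 1 pancreas array and on no liver array, with log2 ratios of -0.12 and 0.06 in liver against 0.42 and 0.96 in pancreas. Its log2 difference of -0.72 passed the adjusted p (0.00565) but not the minimum of 1.

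**Figure D4:**
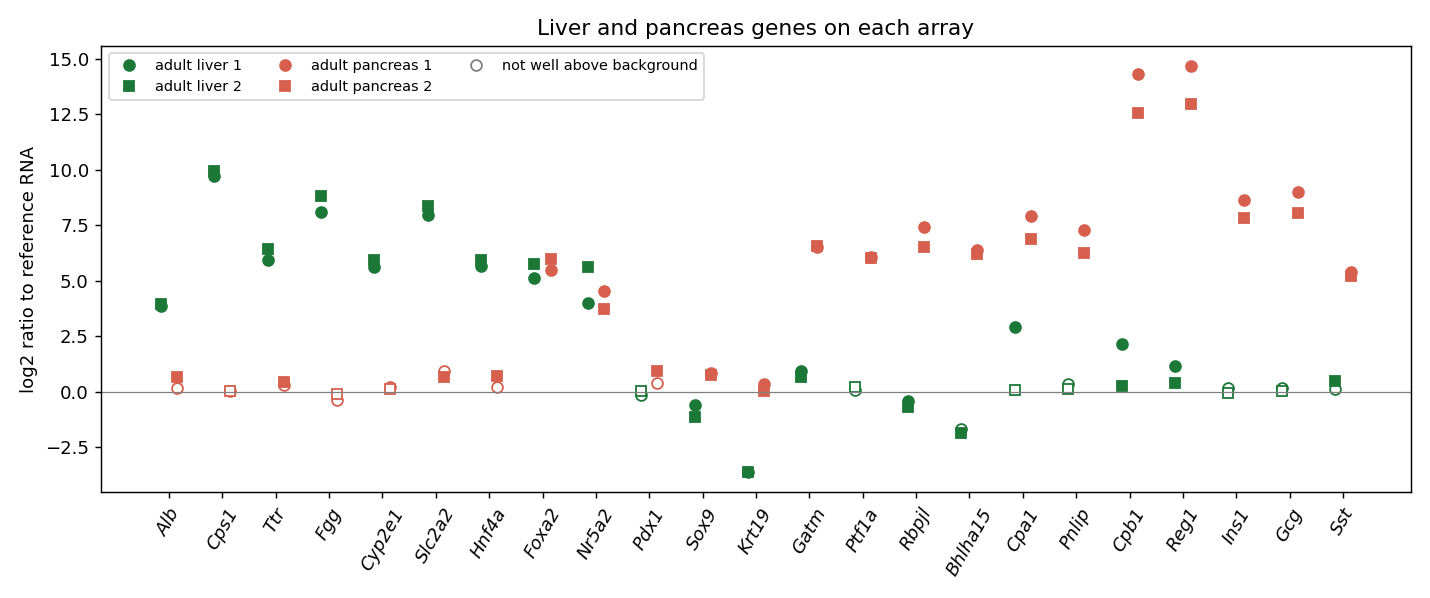
Log2 ratio to reference RNA of 23 genes on each array, with adult liver in green and adult pancreas in red, circles for replicate 1 and squares for replicate 2. Open symbols were not well above background. Foxa2 and Nr5a2 overlap between the organs, Cps1 reaches 9.96 in liver 2, and Reg1 reaches 14.65 in pancreas 1.

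Islet hormones set whole pancreas apart as well, although islets make up a small part of the organ. Of 28 hormone and granule genes tested, 21 were lower in liver and 1 higher, with a median of -2.91, or -2.46 with 13 lower genes at background in liver, and 3 higher ones at background in pancreas, set to their bound. Ins1, an insulin gene, had 0.15 and -0.06 in liver against 8.64 and 7.84 in pancreas and was at least 1202-fold lower (adjusted p = 6.87e-07). Ins2, the other mouse insulin gene, had 0.12 and -0.11 in liver against 7.61 and 6.93 in pancreas (log2 difference -7.27, adjusted p = 1.81e-07). The 2 insulin probes are shown because mouse has 2 insulin genes whose products differ little. They lie at chr19:52339296-52339355 for Ins1 on the plus strand and at chr7:149864675-149864734 for Ins2 on the minus strand, both in mm9. In the best ungapped alignment the 60-base probes are shifted and overlap only in part, and 25 bases match. Both probes hold the run gaccttcagaccttggc. Whether either probe also takes up the other gene's transcript was not tested.
Ins1 probe: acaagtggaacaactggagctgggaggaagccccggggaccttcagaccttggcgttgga
Ins2 probe: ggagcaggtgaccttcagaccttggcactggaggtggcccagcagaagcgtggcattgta
Gcg, glucagon, had 0.15 and 0.03 in liver against 8.996 and 8.04 in pancreas and was at least 335-fold lower (adjusted p = 7.91e-08). Sst, somatostatin, had 0.14 and 0.49 against 5.38 and 5.23 (log2 difference -4.99, adjusted p = 6.37e-08). Ppy, pancreatic polypeptide, was at least 5.71-fold lower with 0.10 and 0.02 against 3.00 and 3.30 (adjusted p = 6.27e-06). These 5 hormone genes were higher on both pancreas arrays, while Ghrl, ghrelin, was not called (log2 difference 0.12, adjusted p = 0.795). Chga, a granule protein of endocrine cells, differed by -7.51 (adjusted p = 2.64e-08) and Abcc8, the sulphonylurea receptor, by -3.97 (adjusted p = 5.36e-09). Slc2a2, given above, was the 1 gene of the list higher in liver.
Of 11 islet transcription factors, 3 were lower in liver and 1 higher, beside 16.4% and 12.7% of all genes tested. Counts this small are not read as a result about islet factors. The median was -0.431, or -0.202 with bounds, against -0.0725 over all genes. Nkx6-1, a beta-cell factor, differed by -2.28 (adjusted p = 1.87e-06), and Irx2, also called lower, was above background on none of the 4 arrays. With Cy3 alone scaled to the 75th percentile 9 of the 11 were called lower.

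Folding and export of secreted protein leaned to the pancreas, but how far depended on the scaling. Of 34 folding genes of the endoplasmic reticulum (ER), 19 were lower in liver and 1 higher (median -1.18). Of 40 genes of the translocon and ER exit, 23 were lower and 1 higher (median -1.11). Pdia2, a pancreatic disulphide isomerase, had 0.23 and 0.02 in liver against 8.77 and 8.04 in pancreas and was at least 4416-fold lower (adjusted p = 1.77e-08). Erp27, which binds unfolded protein, was at least 168-fold lower (adjusted p = 1.84e-12) and Tmed6, a cargo receptor, at least 892-fold (adjusted p = 3.69e-10). Fkbp11, a prolyl isomerase of the ER, had -1.76 and -0.51 against 4.69 and 4.83 (log2 difference -5.89, adjusted p = 3.8e-11). Eif2ak3 (PERK), the ER stress kinase, differed by -3.19 (adjusted p = 1.01e-09), and Ssr4, a translocon-associated protein, by -3.15 (adjusted p = 4.15e-11).
Hspa5 (BiP), the main ER chaperone, had 0.13 and -0.09 in liver against 0.95 and 0.40 in pancreas and was not called (log2 difference -0.66, SE 0.44, adjusted p = 0.26). Xbp1, the factor that widens the ER, was lower by 1.01 (log2 difference -1.01, adjusted p = 0.0246), a call lost without liver 2, without pancreas 1, when the fit held only the 4 arrays, with Agilent's log ratio (-1.21, adjusted p = 0.0786) and with Cy3 alone scaled to the 75th percentile (-0.30, adjusted p = 0.604). Canx, the ER lectin calnexin, was the 1 folding gene higher in liver, by 1.05 (adjusted p = 0.00702), and Sar1b, which carries large lipoprotein cargo out of the ER, was the 1 export gene higher, by 2.35 (adjusted p = 2.46e-09). With Cy3 alone scaled to the 75th percentile the median of all genes moved to -0.733, and the folding and export lists then had medians of -0.314 and -0.127, above that of all genes, with 11 and 6 genes called lower.

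Ribosomal protein genes were lower in liver as a family, 76 of 79 with none higher and a median of -2. Rpl41 had -2.72 and -3.36 in liver against 0.43 and 0.53 in pancreas (log2 difference -3.52, adjusted p = 8.39e-07), and Rps3 had -2.13 and -2.11 against 0.57 and 1.27 (log2 difference -3.04, adjusted p = 1.85e-06). Both encode structural proteins of the ribosome. Under Cy3 alone scaled to the 75th percentile only 9 were called lower and the family median, -0.463, lay above that of all genes, -0.733, so the direction relative to all genes turned. With Cy3 alone quantile normalised 70 were called lower, at a median of -1.61.

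Genes that supply amino acids for enzyme synthesis, and the stress genes that go with them, were mostly lower in liver: 13 of 21, with 3 higher and a median of -2.52. Phgdh, the entry enzyme of serine synthesis, had log2 ratios of -5.71 and -5.75 in liver against 1.61 and 2.10 in pancreas (log2 difference -7.58, SE 0.28, adjusted p = 7.01e-14). Asns, asparagine synthetase, had -5.15 and -4.70 against 2.42 and 2.49 (log2 difference -7.38, adjusted p = 8.06e-12). Liver thus lay far below the reference RNA for both genes, and pancreas above it. Slc38a5, a glutamine carrier, was at least 1282-fold lower (adjusted p = 5.42e-10). Gatm, which makes the creatine precursor guanidinoacetate, had 0.92 and 0.68 against 6.51 and 6.55 (log2 difference -5.73, adjusted p = 6.85e-08). Nupr1, a stress-response factor first found in inflamed pancreas, had -4.33 and -4.005 against 5.08 and 4.98 (log2 difference -9.19, adjusted p = 1.18e-14), and Fgf21, a hormone of liver and acinar cells, 0.78 and -0.14 against 3.45 and 3.26 (log2 difference -3.04, adjusted p = 0.000137). The 3 genes higher in liver were the carriers Slc16a10, Slc43a1 and Slc6a6, of which Slc16a10 differed by 3.12 with its 3 probes between -1.12 and 3.12.

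Other cell types of the organs also differed. Of 22 duct epithelium genes, 14 were lower in liver and 3 higher (median -1.29). Krt19, a keratin of duct cells, had -3.60 and -3.61 in liver against 0.36 and 0.04 in pancreas (log2 difference -3.81, SE 0.53, adjusted p = 7.91e-06), and Sox9, a factor of duct and progenitor cells, had -0.61 and -1.11 against 0.85 and 0.78 (log2 difference -1.67, adjusted p = 3.64e-05). Cldn7, a tight junction protein, differed by -4.89 (adjusted p = 4.00e-08). Lgr5, a Wnt target and marker of stem cells that the study set out from, had 3.44 and 3.35 in liver and was at background in pancreas with -0.22 and 0.05, at least 4.99-fold higher in liver (adjusted p = 1.79e-07). With the series' whole liver arrays used instead, the Lgr5 difference was 0.52 (adjusted p = 0.321).
Of 16 Kupffer cell genes, 7 were higher in liver and none lower (median 1.74), and 4 were without liver 2. With the whole liver arrays as the liver group 5 were higher and the median was 0.539. Clec4f, a lectin of Kupffer cells, had 5.68 and 5.69 against 0.04 and 0.09 and was at least 52.9-fold higher in liver (adjusted p = 8.77e-06), and Cd5l, a macrophage secreted protein, differed by 5.90 (adjusted p = 2.18e-08). Timd4, another macrophage receptor, was not called, with 1.86 and 2.75 against 2.31 and 1.98 (adjusted p = 0.885). Of 15 sinusoidal endothelium genes, 11 were higher (median 2.21), and 5 were when the whole liver arrays were used instead. Gpr182, a chemokine-scavenging receptor, had 5.98 and 6.42 in liver against 0.60 and 0.69 in pancreas (log2 difference 5.56, adjusted p = 0.000581). Stab2, the hyaluronan scavenger receptor, had 3.73 and 3.57 against 2.09 and 0.79 (log2 difference 2.21, adjusted p = 0.000257). Of 20 stellate cell and matrix genes, 11 were lower in liver and 2 higher (median -1.25), and 7 were lower with the whole liver arrays. With Cy3 alone scaled to the 75th percentile 7 were lower, and the list's median of -0.722 was close to the -0.733 of all genes. Col1a1, collagen I, had -6.26 and -5.36 against -2.96 and -2.99 (log2 difference -2.83, adjusted p = 1.3e-06). The 2 higher genes were Reln, a secreted glycoprotein, and Lrat, which esterifies retinol for storage in stellate cells, at least 16.0-fold and at least 5.22-fold higher (adjusted p = 1.94e-05 and 4.9e-10).

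The Cy5 channel carries the same reference RNA on every array. For 194 genes (0.922%) its level differed between liver and pancreas arrays by over 2 on the log2 scale, 183 of these were called, and in 193 the Cy5 level moved in the same direction as Cy3. For Alb the Cy3 level was 18.6 and 18.4 in liver against 6.70 and 7.14 in pancreas, and the Cy5 level was 14.7 and 14.5 against 6.53 and 6.48. The ratio difference of 3.49 was thus smaller than the Cy3 difference of 11.59. For Cpa1 the Cy3 difference was -12.04 against a ratio difference of -5.92. Cps1, Cpb1 and Reg1 showed no such Cy5 difference. Among called genes, 7 went the other way on the Cy3 level: Gnmt, Vtn, Cbs, Ces1e, Hpn, Hsd17b13 and Acot13, named here after their values were seen. Gnmt had Cy3 levels of 17.0 and 17.4 in liver against 14.9 and 14.5 in pancreas, higher in liver by 2.48, and Cy5 levels of 12.2 and 12.9 against 8.21 and 8.05. Its ratio was lower in liver by a log2 difference of -1.96 (adjusted p = 0.00264). Vtn, vitronectin, likewise had a ratio difference of -2.34 with a Cy3 difference of 2.74. The cause was not tested.

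**Figure D5:**
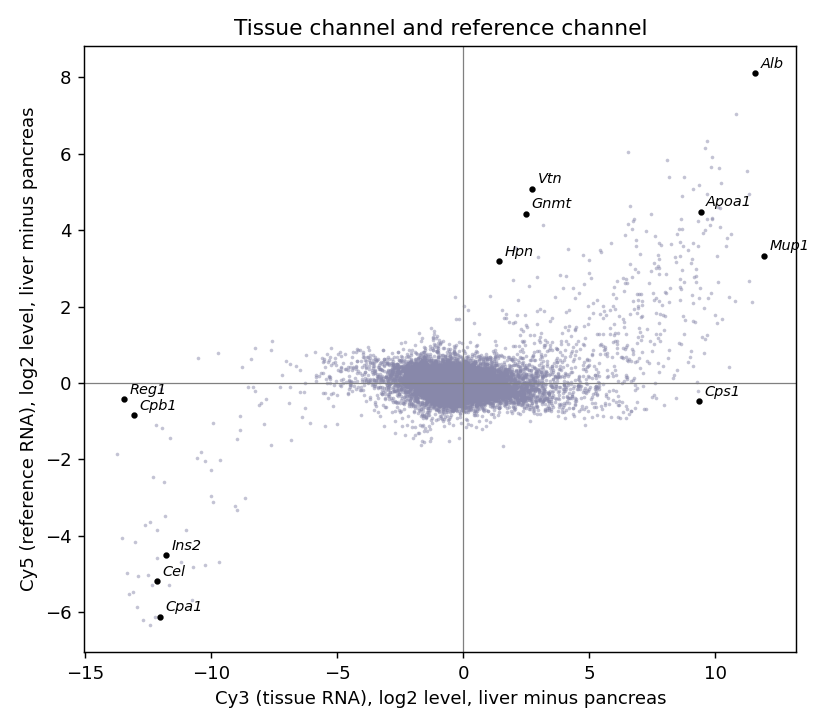
Difference between liver and pancreas in the Cy3 level (tissue RNA, horizontal axis) and in the Cy5 level (reference RNA, vertical axis) of each tested gene, both log2. Alb lies at 11.59 on Cy3 and at the top on Cy5, while Cps1, Reg1 and Cpb1 lie near 0 on Cy5.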

How the data were processed

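RNA of each tissue (Cy3) and a mouse reference RNA (Cy5) was read on Agilent arrays. The deposited scanner files give median intensity and background per spot, per the file headers from Feature Extraction 10.5.1.1; the submitters' processing notes name 8.5.1.1. The authors' series matrix holds the same log10 ratio as the scanner files (largest difference 0).

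Intensities were background-corrected (normexp, offset 50) and loess-normalised in limma 3.58.1 (R 4.3.3), giving log2 ratios from the deposited intensities. Outlier spots (0.495%) were left out, which removed Slco1b2 on pancreas 1. The probe with the highest mean Cy3 stood for a gene, and 28 arrays in 13 groups were fitted together, with Benjamini-Hochberg adjustment. Cy3 levels are after loess and Aquantile. Probe names were updated through RefSeq where matched (16783 genes), and 4249 kept the array's name. Scripts were tested on simulated data. The number of arrays limits precision.

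Named genes were the 20 largest differences each way, up to 5 each way per list or family, and markers; a few others are named for their role. Members and lists were chosen with earlier results of these data known. Some genes are not reported here.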

Additional observations from a re-analysis of the deposited data

How the results depend on the processing

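The count of called genes was 6107, and most alternatives kept it within 1.5 times: 5051 with Cy3 alone quantile normalised, 4700 with the whole liver arrays as the liver group, 5969 with only the 4 arrays, 6061 and 5986 with slide or scan day as a random block, and 8945 with no fold minimum. Agilent's log ratio gave 4228 genes higher, against 2662, and 41.1% of its calls were lower, against 56.4%; the median of all genes was 0.174. Cy3 alone scaled to the 75th percentile gave 11693 called genes, 8437 of them lower. A minimum log2 difference of 2 left 2400 genes, 1284 higher and 1116 lower. Leaving out each array in turn gave 5569 to 6236 called genes, 2491 to 2629 higher and 3039 to 3697 lower; the remaining array of that organ is then assumed to vary like the other groups. With the replicate number as a block over the 4 arrays, 6021 genes were called; deviations of liver 1 and pancreas 1 from their group means correlated at 0.0533, and the arrays share only a number. The sign turned for Gnmt on Cy3 alone (4.06 at the 75th percentile, 2.39 quantile normalised, 2.48 after loess and Aquantile). The cause was not tested. The Cy3 level after loess and Aquantile, and leaving out brown adipose 1, were chosen after seeing the data. Signal over background limits pancreas 1 most.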

Other observations

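Some genes were high against the reference RNA in both organs. In 113 genes the mean log2 ratio was at least 3 in both organs with all 4 arrays above background. Of these, 67 were not called, 26 were higher in liver and 20 lower. Over all genes tested, 12.7% were called higher and 16.4% lower. The count of lower genes is near its share and is not read as a result. Of the 67, 12 differed by over 2 (log2) on the Cy3 level alone. Among those not called, Cpn1, a carboxypeptidase subunit of plasma, had log2 ratios of 4.84 and 4.80 in liver against 4.23 and 5.38 in pancreas, a difference of 0.01 whose 95% interval ran from -0.66 to 0.67 (limma adjusted p = 0.988), while its Cy3 level alone was higher in liver by 2.19.

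Over all genes tested, 12.7% were called higher in liver and 16.4% lower, and most of the following small lists had counts near those shares. The adipocyte and lymphocyte medians, -0.00666 and -0.0607, were also near the -0.0725 of all genes. The counts are not read as results about those cell types. Of 13 adipocyte genes, 3 were higher in liver and 1 lower. Cidec, a lipid droplet protein, differed by 4.88, while Adipoq, the adipocyte hormone, was not called (-1.01, limma adjusted p = 0.157). Of 18 lymphocyte genes, 3 were higher and 1 lower, and the 3 fell to 0 without liver 2 and to 1 without pancreas 2. Of 4 erythroid genes, 1, Alas2, was higher, by 1.88, and with Agilent's ratio 0. Globin ratios went the other way. Hba-a2, outside the list, was called lower (-1.84, limma adjusted p = 0.0348). Hba-a1 (-1.99, adjusted p = 0.0733) and Hbb-bt, also outside it (-2.57, adjusted p = 0.103), were not called. On the Cy3 level alone Hba-a1, Hba-a2 and Hbb-bt differed by 0.04, -0.16 and -0.32. Of 9 intestinal genes, 2 were higher and 1 lower, and of 8 nerve genes 4 were lower, or 2 without pancreas 1 and 7 with Cy3 alone scaled to the 75th percentile. Of 16 early stress genes, 3 were lower in liver, among them Myc (log2 difference -2.29, adjusted p = 5.24e-07).

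Of 14 sex-linked or sex-biased genes, 9 were higher in liver and none lower. Most of the 9 are not Y-linked. The Y-linked Eif2s3y had log2 ratios of 2.45 and 2.84 in liver against 0.29 and 1.02 in pancreas (log2 difference 1.99, adjusted p = 0.0208), and Ddx3y 1.72 and 2.16 against -0.13 and 0.40 (log2 difference 1.80, adjusted p = 0.0141). Kdm5d and Uty, also Y-linked, were not called, and Xist was above background on none of the 4 arrays. The labels give no sex, so a difference of sex and one of organ cannot be told apart for these genes.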
